A study of Mus musculus with 12 samples.

Results

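The translation initiation factors are described here across mouse embryonic stem cells of 3 groups. The set was a list of 40 genes, and its members were all probes whose gene name in the scanner files is on that list. All 40 genes had a probe, 59 probes in all, among 36406 gene names and 55681 non-control probes on the arrays. Of these, 39 genes passed the filter on dim probes, beside 22593 genes in all. The gene that did not pass was Eif5b, the GTPase that joins the ribosomal subunits: its 1 probe was not well above background on any array, so it has no tested value.

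Total RNA was hybridised to 12 one-colour arrays, 4 for each group. WT are wild-type embryonic stem cells, Id1KO are embryonic stem cells with a knockout of Id1, and Id1KO_Zrf1KD are the Id1KO cells after lentiviral infection with short hairpin RNAs against Zrf1 and puromycin selection. Cells of all groups grew with 15% serum and leukaemia inhibitory factor, and the submitters describe the 4 samples of a group as independent biological samples. The labels state infection and selection for Id1KO_Zrf1KD alone, so these cannot be told apart from the knockdown, and no label names more than 1 line per genotype.

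Translation initiation loads a ribosome onto a messenger RNA at its start codon. The factors eIF1, eIF1A, eIF3 and eIF5 gather on the small ribosomal subunit with the ternary complex of eIF2, GTP and initiator tRNA, and eIF2B recharges eIF2 with GTP after each round. The eIF4F complex binds the cap: eIF4E holds it, eIF4G is the scaffold, and eIF4A unwinds the leader with the help of eIF4B and eIF4H. The eIF4E-binding proteins keep eIF4E from eIF4G until mTORC1 phosphorylates them. Embryonic stem cells are known for a low rate of protein synthesis that rises on differentiation.

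Each level below comes from probes of 60 bases. Of the 59 probes, 6 are listed over a span of more than 60 genomic bases in build mm9, the build of the files. Probes of 6 members described below are shown as examples of what was measured. Those of Eif3e and Eif2b3 are the brightest probes of their genes, from which the reported values come. Those of Eif3m, Eif5, Eif4a2 and Eif6 are not the brightest, and their own changes stand beside the reported ones. No base is in capitals, because no part of a probe is singled out.
Eif3e at chr15:43094774-43094833, minus strand: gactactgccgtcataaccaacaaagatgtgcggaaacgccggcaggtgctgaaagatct
Eif3m at chr2:104840440-104841467, minus strand: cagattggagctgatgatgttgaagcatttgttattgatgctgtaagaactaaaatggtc
Eif5 at chr12:112778375-112778434, plus strand: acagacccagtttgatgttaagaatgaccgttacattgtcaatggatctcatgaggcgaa
Eif4a2 at chr16:23110158-23110217, plus strand: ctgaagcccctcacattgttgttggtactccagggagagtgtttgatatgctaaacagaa
Eif2b3 at chr4:116739087-116739146, plus strand: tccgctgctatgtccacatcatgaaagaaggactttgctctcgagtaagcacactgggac
Eif6 at chr2:155648573-155648632, minus strand: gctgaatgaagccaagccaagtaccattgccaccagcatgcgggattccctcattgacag
The Eif3m span is wider than 60 bases. The files name a transcript for each probe (NM_008388 for Eif3e, NM_145380 for Eif3m, NM_173363 for Eif5, NM_013506 for Eif4a2, NM_001111277 for Eif2b3 and NM_010579 for Eif6), and exon and UTR positions in build mm9 were not used here.

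A level is the log2 of a probe's background-subtracted signal minus the log2 of that array's 75th percentile, so 0 is the 75th percentile and 1 unit is a doubling. The 75th percentile itself, in intensity units, spanned 393.3 to 491.8 in Id1KO, 440.7 to 550.2 in WT and 554.0 to 596.5 in Id1KO_Zrf1KD, and 54.8% to 59.3% of spots were well above background. The arrays came from 3 slides, and every slide held all 3 groups. Dnajc2, which encodes Zrf1, was 4.47-fold lower (log2 difference -2.16 with SE 0.073, adjusted p = 9.66e-10) in Id1KO_Zrf1KD than in Id1KO. The Id1 probe was not lower in Id1KO than in WT (log2 fold change 0.37 ± 0.15 SE, adjusted p = 0.0519). No source used here says whether that probe lies in the deleted part, so it does not check the knockout. All 10 embryonic stem cell markers examined, Pou5f1, Nanog and Sox2 among them, were well above background on every array. Gene by gene, 3 of the 10 were called higher and 6 lower in Id1KO vs WT (42.5% and 29.6% of all genes). In Id1KO_Zrf1KD vs Id1KO 5 were higher and 4 lower (32.3% and 39.8%), and in Id1KO_Zrf1KD vs WT 1 and 7 (32.4% and 32.2%). The summed level of the 10 weighs the brightest genes most. In multiples of the 75th percentile, it was 960 to 974 in Id1KO_Zrf1KD, 1190 to 1320 in Id1KO and 1170 to 1330 in WT. The 8 parietal endoderm genes examined summed to 395 to 409, 121 to 127 and 220 to 233 in that order, and 8 fibroblast genes to 55 to 58.9, 10.6 to 11.6 and 19.2 to 21.2. All 8 genes of both lists were higher in Id1KO_Zrf1KD than in Id1KO, 7 and 5 of them were lower in Id1KO than in WT, and Lum was at background on all WT and Id1KO arrays. The part of these genes in the results was not tested, and in a bulk sample fewer cells of a type and less RNA per cell cannot be told apart.

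Compared with WT, Id1KO cells had higher levels of 20 of the 39 tested initiation factor genes and lower levels of 10 at an adjusted p under 0.05. Over all genes tested, 42.5% were higher and 29.6% lower in the same fit, so the members' shares of 51.3% and 25.6% lay close to the background. The background was nearer still over the 3605 genes at least as bright as the members' lower quartile, at 54.2% higher and 27.4% lower. The median log2 fold change of the members was 0.13, beside 0.15 over all genes and 0.23 over the bright genes. The members ranged from -0.54 for Eif4a2 to 1.29 for Eif1ax. Under a rule that also asks for 1.5-fold, 9 members were higher (background 26.2%) and 0 lower (background 15.7%).

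Knockdown of Zrf1 in the Id1KO cells went with higher levels of 22 of the 39 genes and lower levels of 10. With the scaling used here, the background on the knockdown ran the other way, with 32.3% of all genes higher and 39.8% lower. Among the bright genes 34.2% were higher and 44.1% lower. The members' shares were 56.4% higher and 25.6% lower. Their median log2 fold change was 0.17, beside -0.092 over all genes and -0.059 over the bright genes. The members' changes ran from -0.86 for Eif3m to 0.71 for Eif4g1, with 0 members past 2-fold. The share of all genes called past 2-fold was not taken, so that count has no background beside it. At 1.5-fold, 4 were higher (background 15.3%) and 4 lower (background 25.2%). The direction of the background depended on the scaling. Under quantile normalization 35.6% of all genes were higher and 34% lower, and in the deposited values 35.4% and 33.6%.

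In Id1KO_Zrf1KD compared directly with WT, 28 of the 39 genes were higher and 2 were lower, which were Eif4a2 and Eif5a2. Of all genes, 32.4% were higher and 32.2% lower, and of the bright genes 42.8% and 21.6%. The members' shares were 71.8% and 5.13%, and their median log2 fold change was 0.31, beside -0.017 over all genes and 0.085 over the bright genes. At 1.5-fold, 8 were higher (background 16.1%) and 2 lower (background 17.9%). The 3 comparisons share their groups pairwise and are not independent of each other.

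**Figure D1:**
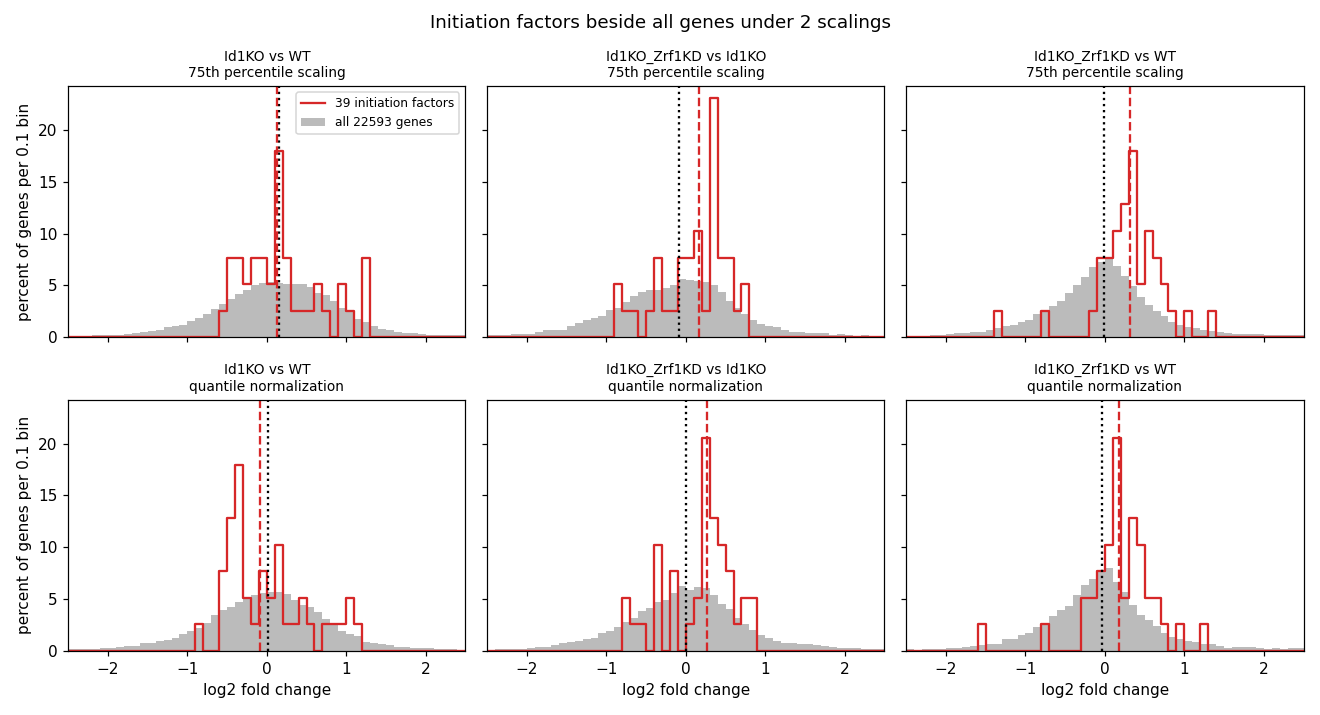
Percent of genes in each bin of 0.1 log2 fold change, for all 22593 genes (grey bars) and the 39 initiation factor genes (red line), in the 3 comparisons, with the 75th percentile scaling in the upper panels and quantile normalization in the lower panels; genes past 3 log2 units are counted in the last bin and panels stop at 2.5. The dotted black line is the median of all genes and the dashed red line that of the members: in Id1KO vs WT the members' median is 0.13 above and -0.085 below, while in the other 2 comparisons it stays right of the median of all genes under both.

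The scaling between arrays mattered for the first comparison and, without a change of sign among the calls, for the third. In the second it turned the direction of the background. There the median of all genes moved from -0.092 to 0.0072 with quantile normalization, and the members' median from 0.17 to 0.27. With quantile normalization the median of all genes in Id1KO vs WT moved from 0.15 to 0.015, and the share of higher genes among all called from 59% to 50.4%. The members then split into 13 higher and 18 lower, with a median of -0.085. Of all genes, 35.2% were then higher and 34.7% lower. Members called alike under all 5 scalings (75th percentile, median, quantile, normexp background and the deposited values) numbered 12 higher and 10 lower in Id1KO vs WT. They numbered 19 higher and 8 lower in Id1KO_Zrf1KD vs Id1KO, and 20 higher and 2 lower in Id1KO_Zrf1KD vs WT. The share of all genes called alike under all 5 was not taken, so these counts have no background beside them. The calls that were not kept under every scaling were, in Id1KO vs WT, Eif2b2, Eif2s2, Eif3j, Eif3k, Eif4a3, Eif4e2, Eif5a and Eif6, of which Eif2s2, Eif3k, Eif4e2 and Eif5a changed sign. In Id1KO_Zrf1KD vs Id1KO they were Eif3h, Eif3k, Eif4e3, Eif4g2 and Eif5, of which Eif3k and Eif4e3 changed sign. In Id1KO_Zrf1KD vs WT they were Eif2s1, Eif3a, Eif3d, Eif3i, Eif3k, Eif4b, Eif4e2 and Eif4g1, and 0 changed sign. Each of these was lost under quantile normalization, where the members' median fell from 0.31 to 0.17. Some calls passed with the same sign under quantile normalization but moved by over 1.5 times. These were Eif2s1 (0.47), Eif3h (0.11) and Eif4a2 (-0.89) in Id1KO vs WT, Eif3d (0.43), Eif3g (0.79), Eif4e3 (0.80) and Eif5a (0.56) in Id1KO_Zrf1KD vs Id1KO, and Eif2b3 (0.16) and Eif2b4 (0.16) in Id1KO_Zrf1KD vs WT. Within slides, the sign of the called change was the same on all 3 slides for 28 of 28 members with a value on each in Id1KO vs WT. The same held for 29 of 30 in Id1KO_Zrf1KD vs Id1KO, Eif4e3 being the exception, and for 30 of 30 in Id1KO_Zrf1KD vs WT. The slide differences come from the same arrays as the calls, so they are no separate support. The share over all called genes was not taken.

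**Figure D2:**
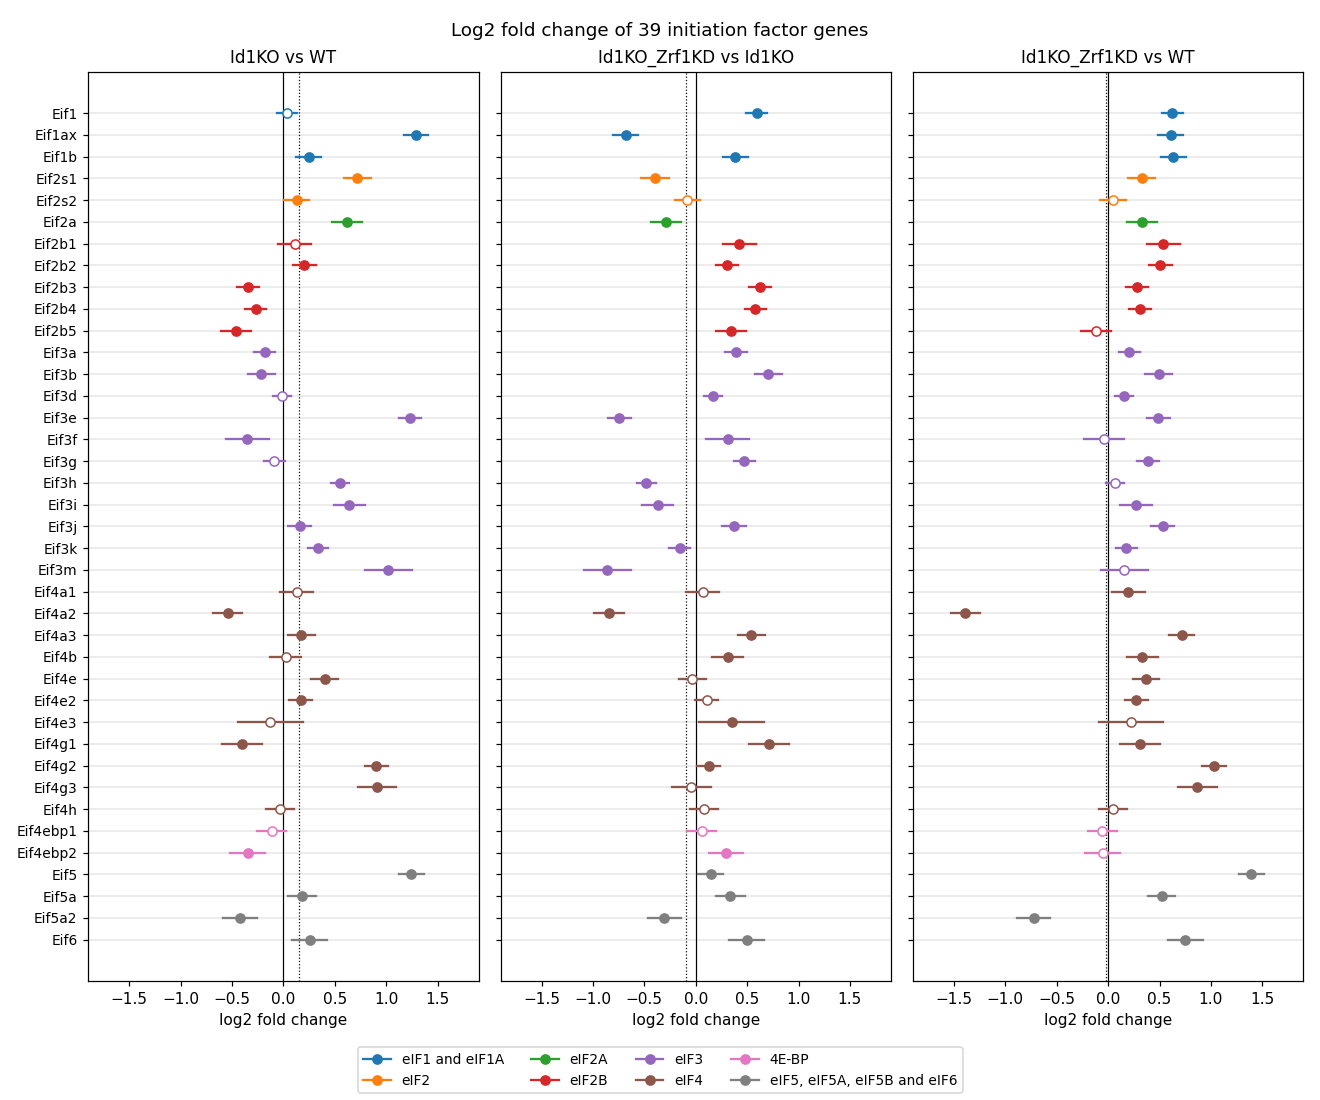
Log2 fold change (horizontal axis, 75th percentile scaling) of the 39 tested members in the 3 comparisons, coloured by role; bars are 95% confidence intervals from limma, filled points passed an adjusted p under 0.05, and the dotted line is the median of all genes. Eif4a2 and Eif5a2 lie left of 0 in every panel, Eif1ax, Eif3e and Eif3m cross from right to left between the first and the second panel, and the 5 eIF2B genes lie right of 0 in the second.

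Of the scanning factors, Eif1ax changed most in Id1KO vs WT. Eif1ax, a gene of the X chromosome, encodes eIF1A, which with eIF1 opens the small subunit for scanning. Its level was 4.95, 4.89, 4.94 and 4.84 on the 4 WT arrays, 6.09, 6.20, 6.23 and 6.28 on 4 Id1KO arrays and 5.47, 5.56, 5.45 and 5.58 on the 4 Id1KO_Zrf1KD arrays. Every Id1KO array lay above every Id1KO_Zrf1KD array, and those lay above every WT array. Eif1ax was 2.45-fold higher (log2 difference 1.29 with SE 0.053, adjusted p = 2.79e-09) in Id1KO than in WT, 1.61-fold lower (log2 difference -0.68 with SE 0.053, adjusted p = 4.94e-07) in Id1KO_Zrf1KD than in Id1KO, and 1.52-fold higher (log2 difference 0.61 with SE 0.053, adjusted p = 1.44e-06) in Id1KO_Zrf1KD than in WT.

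Eif1 guards the choice of start codon. Its level was 6.77, 6.74, 6.73 and 6.72 on the 4 WT arrays, 6.77, 6.81, 6.75 and 6.77 on 4 Id1KO arrays and 7.46, 7.41, 7.29 and 7.30 on the 4 Id1KO_Zrf1KD arrays. The WT and Id1KO arrays overlapped and all Id1KO_Zrf1KD arrays were above both. Eif1 was 1.51-fold higher (log2 difference 0.59 with SE 0.044, adjusted p = 3.51e-07) in Id1KO_Zrf1KD than in Id1KO, whereas its difference between Id1KO and WT was 0.034 ± 0.044 (SE, adjusted p = 0.498), and turned to -0.31 under quantile normalization and -0.25 in the deposited values. Eif1b, a close paralogue of Eif1, read 2.82, 2.75, 2.71 and 2.70 on the 4 WT arrays, 2.96, 2.91, 3.07 and 3.02 on 4 Id1KO arrays and 3.40, 3.36, 3.28 and 3.47 on the 4 Id1KO_Zrf1KD arrays. The 3 groups rose in steps without overlap, with log2 fold changes of 0.25 in Id1KO vs WT (adjusted p = 0.00161) and 0.39 in Id1KO_Zrf1KD vs Id1KO (adjusted p = 5.92e-05).

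Of the 2 listed subunits of eIF2, which carries the initiator tRNA, Eif2s1 was higher in Id1KO and Eif2s2 had no settled direction. Eif2s1, the alpha subunit that the stress kinases phosphorylate, was 1.65-fold higher (log2 difference 0.72 with SE 0.059, adjusted p = 7.57e-07) than in WT. In Id1KO_Zrf1KD it was 1.32-fold lower (log2 difference -0.40 with SE 0.059, adjusted p = 0.000107) than in Id1KO, and a second Eif2s1 probe moved the same way in both steps (0.63 and -0.19). Eif2s2, the beta subunit, passed the test narrowly in Id1KO vs WT (0.13 ± 0.054, adjusted p = 0.0499) with overlapping arrays and not without WT replicate 1, 2 or 4 or Id1KO replicate 1, 2 or 4 (0.099 to 0.14), and its sign was negative under quantile normalization (-0.25) and in the deposited values (-0.24). Its second probe fell by 1.72 in that comparison, so no direction is given for Eif2s2. Eif2a, which encodes a separate factor able to deliver initiator tRNA without GTP and not the alpha subunit of eIF2, was 1.54-fold higher (log2 difference 0.62 with SE 0.065, adjusted p = 5.51e-06) in Id1KO than in WT and 1.23-fold lower (log2 difference -0.29 with SE 0.065, adjusted p = 0.00181) in Id1KO_Zrf1KD than in Id1KO.

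All 5 genes of eIF2B, the exchange factor for eIF2, were higher in Id1KO_Zrf1KD than in Id1KO, and the calls held under all 5 scalings, beside 32.3% of all genes called higher there. In Id1KO vs WT, where 42.5% of all genes were called higher and 29.6% lower, 3 of the 5 were lower (Eif2b3, Eif2b4 and Eif2b5, the gamma, delta and epsilon subunits), Eif2b2 was higher (0.20 ± 0.049, adjusted p = 0.00296), and Eif2b1 did not pass (0.11 ± 0.071, adjusted p = 0.176). The rise of Eif2b2 was not called under quantile normalization (0.049). Eif2b3 read 3.30, 3.22, 3.36 and 3.40 on the 4 WT arrays, 2.96, 3.01, 2.995 and 2.92 on 4 Id1KO arrays and 3.60, 3.54, 3.62 and 3.65 on the 4 Id1KO_Zrf1KD arrays. The Id1KO arrays were the lowest, the Id1KO_Zrf1KD arrays the highest, and no groups overlapped. Eif2b3 was 1.27-fold lower (log2 difference -0.35 with SE 0.047, adjusted p = 5.11e-05) in Id1KO than in WT and 1.55-fold higher (log2 difference 0.63 with SE 0.047, adjusted p = 4.03e-07) in Id1KO_Zrf1KD than in Id1KO, and its second probe gave -0.28 and 0.57. Eif2b5, the catalytic subunit, read 3.99, 4.001, 3.76 and 3.88 on the 4 WT arrays, 3.43, 3.42, 3.54 and 3.40 on 4 Id1KO arrays and 3.84, 3.83, 3.67 and 3.81 on the 4 Id1KO_Zrf1KD arrays. Its Id1KO arrays lay below all others, and the WT and Id1KO_Zrf1KD arrays overlapped. Eif2b5 was 1.38-fold lower (log2 difference -0.46 with SE 0.064, adjusted p = 5.42e-05) in Id1KO than in WT and 1.27-fold higher (log2 difference 0.34 with SE 0.064, adjusted p = 0.00055) in Id1KO_Zrf1KD than in Id1KO, and did not pass between Id1KO_Zrf1KD and WT (-0.12 ± 0.064, adjusted p = 0.121). In that last comparison it was called lower under quantile normalization (-0.249) and in the deposited values (-0.2525). Eif2b4, the delta subunit, changed by -0.27 ± 0.046 and 0.58 ± 0.046 (log2, SE) in the first 2 comparisons (adjusted p = 0.000293 and 6.52e-07). Eif2b1 and Eif2b2, the alpha and beta subunits, were 1.34-fold higher and 1.23-fold higher in Id1KO_Zrf1KD than in Id1KO (adjusted p = 0.000256 and 0.000176).

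The 11 listed subunits of eIF3, the large scaffold of the small subunit, did not move as one. On the Zrf1 knockdown, 6 rose (Eif3a, Eif3b, Eif3d, Eif3f, Eif3g and Eif3j) and 5 fell (Eif3e, Eif3h, Eif3i, Eif3k and Eif3m), beside 32.3% and 39.8% of all genes, and 0 missed the test. Each of the 5 that fell had been higher in Id1KO than in WT, though Eif3k changed sign in both comparisons under quantile normalization and in the deposited values, and Eif3h was not called in the second under every scaling. Because Id1KO enters both comparisons, high or low Id1KO values push them in opposite directions. Against WT, Id1KO_Zrf1KD had 8 eIF3 genes higher and 0 lower, beside 32.4% and 32.2% of all genes. Of the 8, Eif3b, Eif3e, Eif3g and Eif3j were called under all 5 scalings, and Eif3a, Eif3d, Eif3i and Eif3k were not called under quantile normalization or in the deposited values. Eif3f was called lower in the deposited values (-0.20, adjusted p = 0.04999), and the probes of Eif3j disagreed.

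Eif3e encodes a subunit that contacts eIF4G. It read 4.02, 4.05, 4.18 and 4.14 on the 4 WT arrays, 5.35, 5.24, 5.34 and 5.38 on 4 Id1KO arrays and 4.56, 4.58, 4.56 and 4.65 on the 4 Id1KO_Zrf1KD arrays. The 3 groups did not overlap, with Id1KO highest and WT lowest. Eif3e was 2.35-fold higher (log2 difference 1.23 with SE 0.049, adjusted p = 2.26e-09) in Id1KO than in WT and 1.67-fold lower (log2 difference -0.74 with SE 0.049, adjusted p = 1.36e-07) in Id1KO_Zrf1KD than in Id1KO. Eif3m read 4.99, 4.99, 5.29 and 5.17 on the 4 WT arrays, 6.10, 6.29, 5.99 and 6.14 on 4 Id1KO arrays and 5.07, 5.27, 5.49 and 5.24 on the 4 Id1KO_Zrf1KD arrays. All Id1KO arrays were above the rest, while WT and Id1KO_Zrf1KD overlapped. Eif3m was 2.03-fold higher (log2 difference 1.02 with SE 0.1, adjusted p = 3.56e-06) in Id1KO than in WT and 1.82-fold lower (log2 difference -0.86 with SE 0.1, adjusted p = 1.51e-05) in Id1KO_Zrf1KD than in Id1KO, and its second probe, the one printed above, gave 1.04 and -0.80. Eif3h, which binds Eif3f and Eif3m in the complex, changed by 0.55 ± 0.04 and then -0.48 ± 0.04 (log2, SE), and its second probe by 0.72 and -0.55. Under quantile normalization the changes of the brightest Eif3h probe were 0.107 and -0.100, and in the deposited values 0.17 and -0.13, and the second of them was called in neither. Eif3i, a WD-repeat subunit of the module that faces the start codon, changed by 0.64 ± 0.067 and -0.37 ± 0.067. Eif3k, one of the peripheral subunits, changed by 0.34 ± 0.044 and -0.16 ± 0.044, but another of its 3 probes rose by 0.16 in the second comparison (adjusted p = 0.012).

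Eif3b, the scaffold of the module that holds Eif3g and Eif3i, read 4.07, 4.01, 3.87 and 3.92 on the 4 WT arrays, 3.77, 3.74, 3.82 and 3.69 on 4 Id1KO arrays and 4.52, 4.54, 4.36 and 4.43 on the 4 Id1KO_Zrf1KD arrays. The Id1KO arrays were the lowest and the Id1KO_Zrf1KD arrays the highest, without overlap. Eif3b was 1.16-fold lower (log2 difference -0.21 with SE 0.058, adjusted p = 0.00661) in Id1KO than in WT and 1.63-fold higher (log2 difference 0.70 with SE 0.058, adjusted p = 8.96e-07) in Id1KO_Zrf1KD than in Id1KO. Eif3a, the largest subunit, showed the same order, with -0.18 ± 0.046 and 0.39 ± 0.046 (log2, SE; adjusted p = 0.00411 and 1.68e-05). Eif3f, fitted without 1 Id1KO array whose spot was marked an outlier, changed by -0.35 ± 0.092 and 0.31 ± 0.092 (adjusted p = 0.00594 and 0.0118). Eif3g, which takes part in scanning, and Eif3d, a subunit with cap-binding activity of its own, did not pass in Id1KO vs WT (-0.087 ± 0.046 and -0.014 ± 0.039, but -0.43 and -0.36 and called under quantile normalization) and were 1.39-fold higher and 1.12-fold higher on the knockdown (adjusted p = 3.60e-06 and 0.00259). Eif3j, a loosely bound subunit, was 1.29-fold higher on the knockdown by its brightest probe (adjusted p = 4.50e-05). The third of its probes fell by 0.80 in Id1KO vs WT and by 0.67 in Id1KO_Zrf1KD vs WT, where the brightest probe rose, so Eif3j has no settled direction against WT.

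**Figure D3:**
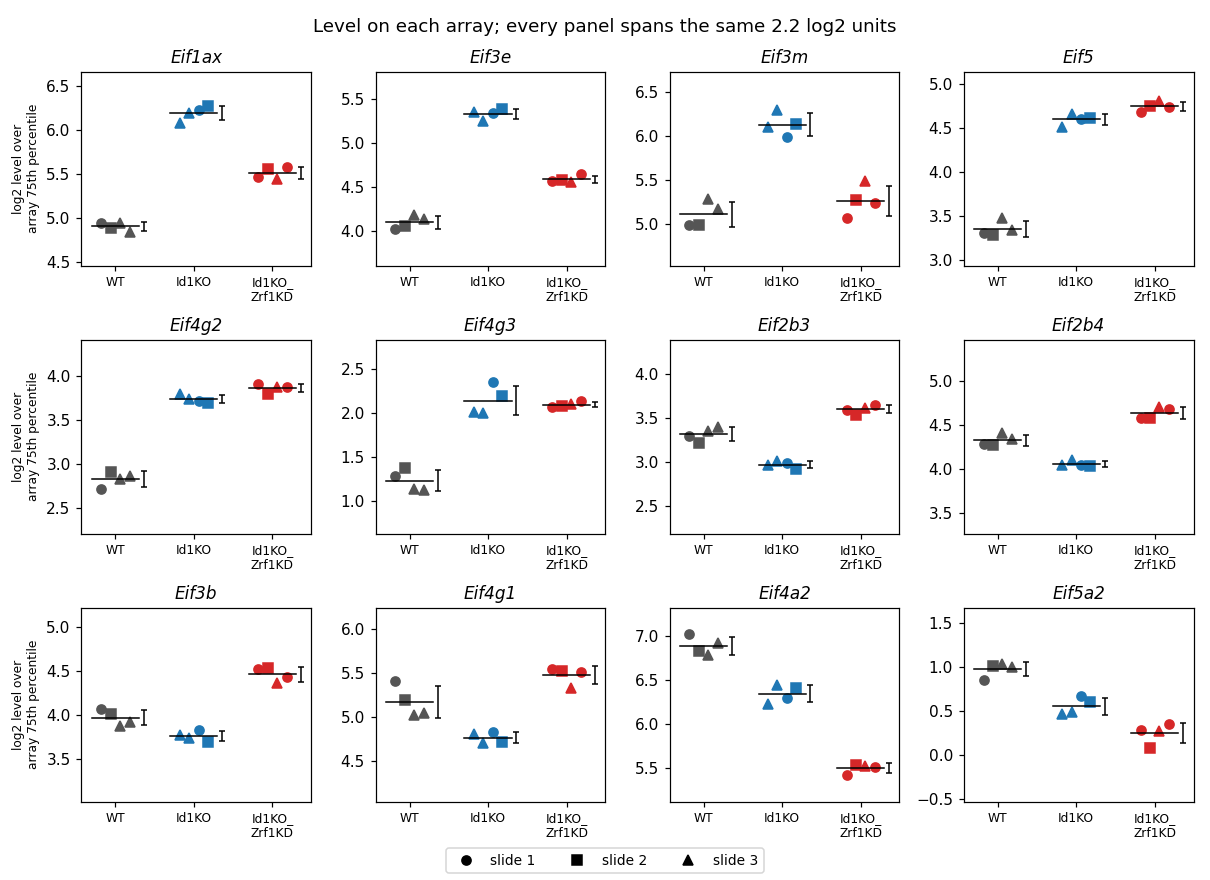
Log2 level over the array's 75th percentile (vertical axis) on each of the 12 arrays for 12 members; point shape gives the slide, horizontal lines are group means and bars 1 SD over 4 arrays, and every panel spans 2.2 log2 units. Eif1ax, Eif3e and Eif3m peak in Id1KO, Eif5, Eif4g2 and Eif4g3 stay high in both knockout groups, Eif2b3, Eif2b4, Eif3b and Eif4g1 dip in Id1KO, and Eif4a2 and Eif5a2 step down from WT to Id1KO and again to Id1KO_Zrf1KD.

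Among the eIF4 genes, Eif4a2 fell in every comparison. It encodes a paralogue of the eIF4A helicase that is also linked to silencing by microRNAs. Its level was 7.02, 6.84, 6.79 and 6.93 on the 4 WT arrays, 6.24, 6.45, 6.30 and 6.41 on 4 Id1KO arrays and 5.42, 5.54, 5.53 and 5.52 on the 4 Id1KO_Zrf1KD arrays. The groups stepped down without overlap from WT to Id1KO to Id1KO_Zrf1KD. Eif4a2 was 1.46-fold lower (log2 difference -0.54 with SE 0.064, adjusted p = 1.52e-05) in Id1KO than in WT, 1.8-fold lower (log2 difference -0.85 with SE 0.064, adjusted p = 4.27e-07) in Id1KO_Zrf1KD than in Id1KO, and 2.62-fold lower (log2 difference -1.39 with SE 0.064, adjusted p = 8.55e-09) in Id1KO_Zrf1KD than in WT. Its second probe, the one printed above, gave -0.27, -0.98 and -1.25. Eif4a1, the main helicase of eIF4F, read 7.67, 7.52, 7.79 and 7.67 on the 4 WT arrays, 7.74, 7.96, 7.67 and 7.81 on 4 Id1KO arrays and 7.81, 7.84, 7.93 and 7.85 on the 4 Id1KO_Zrf1KD arrays. Its arrays overlapped between neighbouring groups, and its differences of 0.13 ± 0.071 and 0.067 ± 0.071 did not pass (adjusted p = 0.128 and 0.417), while under quantile normalization they were -0.31 and 0.48 and both passed. In Id1KO_Zrf1KD vs WT Eif4a1 was higher by 0.20 (adjusted p = 0.032) and was called under all 5 scalings. That call was lost when some single arrays were left out. Eif4a3, the helicase of the exon junction complex, was 1.45-fold higher on the knockdown (adjusted p = 1.42e-05) and 1.64-fold higher in Id1KO_Zrf1KD than in WT (adjusted p = 1.04e-06), with 1 Id1KO array left out as an outlier spot.

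The eIF4G scaffolds parted. Eif4g1, the main scaffold, read 5.41, 5.19, 5.02 and 5.05 on the 4 WT arrays, 4.81, 4.71, 4.84 and 4.72 on 4 Id1KO arrays and 5.55, 5.52, 5.33 and 5.51 on the 4 Id1KO_Zrf1KD arrays. The Id1KO arrays were below all others, and 1 WT array lay within the Id1KO_Zrf1KD range. Eif4g1 was 1.32-fold lower (log2 difference -0.40 with SE 0.086, adjusted p = 0.00138) in Id1KO than in WT and 1.64-fold higher (log2 difference 0.71 with SE 0.086, adjusted p = 1.92e-05) in Id1KO_Zrf1KD than in Id1KO. Eif4g3, its paralogue, read 1.29, 1.38, 1.14 and 1.13 on the 4 WT arrays, 2.02, 2.002, 2.35 and 2.19 on 4 Id1KO arrays and 2.07, 2.09, 2.10 and 2.14 on the 4 Id1KO_Zrf1KD arrays. Both knockout groups were above WT and overlapped each other. Eif4g3 was 1.88-fold higher (log2 difference 0.91 with SE 0.083, adjusted p = 1.79e-06) in Id1KO than in WT and differed by -0.042 ± 0.083 on the knockdown (adjusted p = 0.665). Eif4g2 encodes a relative that lacks the eIF4E-binding site and serves cap-independent initiation and differentiation of embryonic stem cells. It read 2.71, 2.92, 2.83 and 2.87 on the 4 WT arrays, 3.80, 3.75, 3.72 and 3.69 on 4 Id1KO arrays and 3.91, 3.80, 3.88 and 3.87 on the 4 Id1KO_Zrf1KD arrays. All arrays of both knockout groups were above WT. Eif4g2 was 1.87-fold higher (log2 difference 0.90 with SE 0.05, adjusted p = 3.12e-08) in Id1KO than in WT and 2.04-fold higher (log2 difference 1.03 with SE 0.05, adjusted p = 1.38e-08) in Id1KO_Zrf1KD than in WT.

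Eif4e, the cap-binding protein, read 2.72, 2.61, 2.82 and 2.80 on the 4 WT arrays, 3.19, 3.14, 3.097 and 3.12 on 4 Id1KO arrays and 3.09, 3.001, 3.17 and 3.16 on the 4 Id1KO_Zrf1KD arrays by its brightest probe. Both knockout groups lay above WT and overlapped each other, at 0.40 ± 0.057 and 0.37 ± 0.057 (log2, SE) against WT. Its other probe fell by 0.69 in Id1KO vs WT and by 0.78 in Id1KO_Zrf1KD vs WT (adjusted p = 4.42e-07 and 2.00e-07), so the gene has no settled direction against WT, and neither probe passed on the knockdown. Eif4e2, a paralogue that represses translation, read 5.31, 5.36, 5.37 and 5.32 on the 4 WT arrays, 5.51, 5.45, 5.58 and 5.50 on 4 Id1KO arrays and 5.62, 5.68, 5.50 and 5.66 on the 4 Id1KO_Zrf1KD arrays. Its WT arrays were the lowest (0.28 ± 0.049 in Id1KO_Zrf1KD vs WT), but in that comparison its other 2 probes gave 0.88 and -0.33, both past the test, and under quantile normalization the difference of Id1KO from WT was -0.069 where the main value was 0.17. Eif4e3, an atypical cap-binding paralogue, was dim, with mean levels near the lower end of detection, and its rise on the knockdown (0.35 ± 0.14, adjusted p = 0.0423) had overlapping arrays, a negative sign (-0.053) with normexp background and no call without Id1KO replicate 2 or 3 or Id1KO_Zrf1KD replicate 1, 2 or 4 (0.21 to 0.38). Eif4b, the helicase cofactor, was 1.24-fold higher on the knockdown (adjusted p = 0.0014), and all 3 of its probes rose there. Eif4h, a related cofactor, passed in 0 of 3 comparisons, with log2 fold changes of -0.034, 0.079 and 0.045, the first 2 of which became -0.34 and 0.27 and passed under quantile normalization.

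Of the 2 listed eIF4E-binding proteins, 1 was called. Eif4ebp1 read 6.998, 7.01, 6.92 and 6.90 on the 4 WT arrays, 6.92, 6.68, 6.94 and 6.83 on 4 Id1KO arrays and 6.99, 6.89, 6.81 and 6.91 on the 4 Id1KO_Zrf1KD arrays. Arrays of all groups overlapped, and 0 of 3 comparisons passed, with log2 fold changes of -0.11 ± 0.062, 0.057 ± 0.062 and -0.057 ± 0.062 (SE). Under quantile normalization the first 2 became -0.48 and 0.32 and passed. Eif4ebp2 read 3.87, 3.90, 3.83 and 3.96 on the 4 WT arrays, 3.73, 3.36, 3.54 and 3.53 on 4 Id1KO arrays and 3.92, 3.81, 3.71 and 3.89 on the 4 Id1KO_Zrf1KD arrays. The Id1KO arrays were the lowest, with 1 of them inside the Id1KO_Zrf1KD range. Eif4ebp2 was 1.27-fold lower (log2 difference -0.35 with SE 0.075, adjusted p = 0.00154) in Id1KO than in WT and 1.23-fold higher (log2 difference 0.29 with SE 0.075, adjusted p = 0.00437) in Id1KO_Zrf1KD than in Id1KO.

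Eif5, the GTPase-activating protein for eIF2, had the highest log2 fold change of the members in Id1KO_Zrf1KD vs WT. It read 3.31, 3.28, 3.48 and 3.35 on the 4 WT arrays, 4.51, 4.66, 4.60 and 4.62 on 4 Id1KO arrays and 4.68, 4.75, 4.81 and 4.74 on the 4 Id1KO_Zrf1KD arrays. Both knockout groups were far above WT, and Id1KO_Zrf1KD was just above Id1KO without overlap. Eif5 was 2.37-fold higher (log2 difference 1.25 with SE 0.054, adjusted p = 4.41e-09) in Id1KO than in WT and 2.62-fold higher (log2 difference 1.39 with SE 0.054, adjusted p = 2.10e-09) in Id1KO_Zrf1KD than in WT, and the probe printed above gave 1.35 and 1.60. Eif6, which keeps the ribosomal subunits apart, read 4.49, 4.49, 4.24 and 4.28 on the 4 WT arrays, 4.63, 4.51, 4.75 and 4.64 on 4 Id1KO arrays and 5.17, 5.21, 5.02 and 5.10 on the 4 Id1KO_Zrf1KD arrays. The groups rose in steps without overlap, though the first step was not called under quantile normalization (0.13) or in the deposited values (0.14). Eif6 was 1.41-fold higher (log2 difference 0.49 with SE 0.076, adjusted p = 0.000131) in Id1KO_Zrf1KD than in Id1KO and 1.68-fold higher (log2 difference 0.75 with SE 0.076, adjusted p = 5.20e-06) in Id1KO_Zrf1KD than in WT, and of its other 2 probes the one printed above gave 0.49 and 0.78 and 1 did not pass (0.084 and 0.11).

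Eif5a and Eif5a2 encode the eIF5A proteins, the carriers of hypusine, which help elongation and termination as well as initiation. Eif5a read 5.91, 5.85, 5.69 and 5.82 on the 4 WT arrays, 5.99, 5.999 and 6.01 on 3 Id1KO arrays and 6.30, 6.39, 6.26 and 6.41 on the 4 Id1KO_Zrf1KD arrays, since 1 Id1KO spot was marked an outlier. Its 3 groups rose in steps without overlap, though the first step turned to -0.12 under quantile normalization. Eif5a was 1.26-fold higher (log2 difference 0.34 with SE 0.061, adjusted p = 0.00062) in Id1KO_Zrf1KD than in Id1KO. Eif5a2 read 0.86, 1.02, 1.04 and 1.01 on the 4 WT arrays, 0.47, 0.50, 0.67 and 0.60 on 4 Id1KO arrays and 0.29, 0.09, 0.28 and 0.36 on the 4 Id1KO_Zrf1KD arrays. Its groups fell in steps without overlap. Eif5a2 was 1.34-fold lower (log2 difference -0.42 with SE 0.072, adjusted p = 0.000274) in Id1KO than in WT, 1.24-fold lower (log2 difference -0.30 with SE 0.072, adjusted p = 0.00262) in Id1KO_Zrf1KD than in Id1KO, and 1.65-fold lower (log2 difference -0.73 with SE 0.072, adjusted p = 4.14e-06) in Id1KO_Zrf1KD than in WT.

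The balance within paralogue pairs was taken as the difference of the log2 levels on the same array. A constant shift of an array cannot change this difference, but quantile normalization can. Only its change between groups is read, by a two-sided exact permutation test over arrays, adjusted over 18 tests. The smallest p that 4 against 4 arrays allow is 0.0286, which after adjustment became 0.0396 for every pair whose groups did not overlap. Eif4a2 lost ground to Eif4a1 by -0.67 ± 0.087 (log2, SE) in Id1KO vs WT, by -0.91 ± 0.045 on the knockdown and by -1.58 ± 0.083 in Id1KO_Zrf1KD vs WT, a 3-fold change of their ratio. Eif5a2 lost ground to Eif5a by -0.64 ± 0.091, -0.60 ± 0.082 and -1.25 ± 0.11 in the same comparisons, with 3 Id1KO arrays. Eif4g3 gained on Eif4g1 by 1.31 ± 0.099 in Id1KO vs WT, gave back -0.75 ± 0.092 on the knockdown and stayed 0.56 ± 0.086 above WT. These 9 changes all passed at an exact adjusted p of 0.0396. No pair passed with any 1 WT array left out, when the lowest exact adjusted p was 0.0514 to 0.0571. The changes of Eif4a2 against Eif4a1 between Id1KO and WT then stayed between -0.75 and -0.63. The other 3 pairs moved by less than 0.25. Eif1b against Eif1 (0.21 ± 0.049) and Eif4e2 against Eif4e (-0.23 ± 0.067) passed in Id1KO vs WT and not in the other 2 comparisons, and Eif4ebp2 against Eif4ebp1 passed there (-0.23 ± 0.059) and on the knockdown (0.24 ± 0.045). In the deposited values the last pair passed in neither (-0.033 and -0.038), Eif1b against Eif1 passed on the knockdown (-0.50), and Eif5a2 against Eif5a missed in Id1KO vs WT (-0.33). Of these, the Eif4e2 and Eif4e pair rests on probes that disagree with others of the same gene. Under quantile normalization Eif1b and Eif1 changed by 0.24 and -0.31 in Id1KO vs WT. Eif4e2 and Eif4e then changed by -0.069 and 0.38, and Eif4ebp2 and Eif4ebp1 by -0.42 and -0.48.

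**Figure D4:**
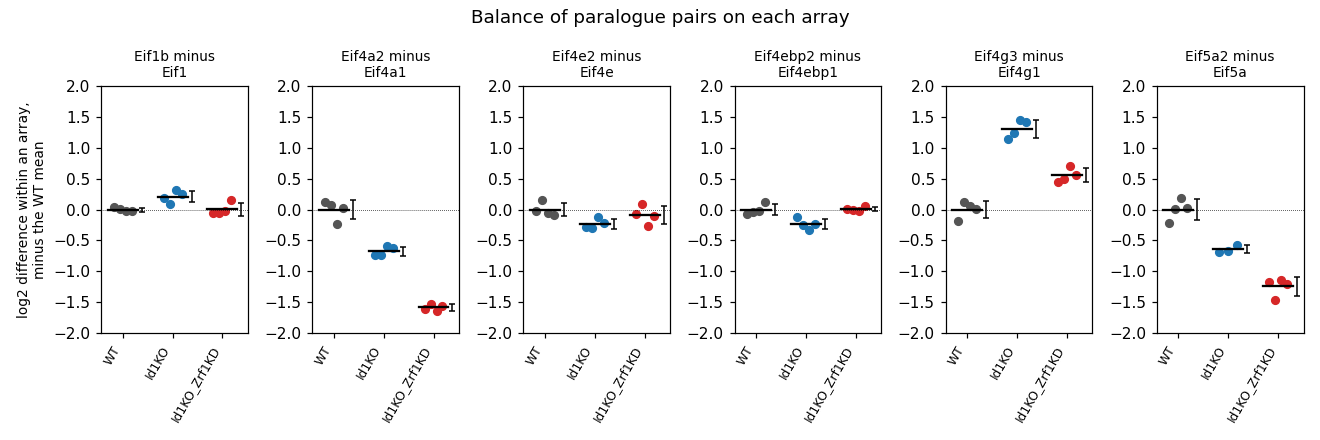
Difference of the log2 levels of 2 paralogues on the same array (vertical axis, minus the WT mean) for the 6 pairs; points are arrays, lines are group means and bars 1 SD. Eif4a2 minus Eif4a1 and Eif5a2 minus Eif5a step down from WT to Id1KO to Id1KO_Zrf1KD, Eif4g3 minus Eif4g1 is highest in Id1KO, and the other 3 pairs stay within 0.5 units of the WT mean.

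Of the 40 members, 14 had more than 1 probe. Their probes gave opposite calls for 2 of the 14 genes in Id1KO vs WT (Eif3j and Eif4e), for 1 on the knockdown (Eif3k) and for 3 in Id1KO_Zrf1KD vs WT (Eif3j, Eif4e and Eif4e2). With each of the 58 kept probes fitted on its own among 30885, 28 were higher and 15 lower in Id1KO vs WT, 29 and 15 on the knockdown, and 39 and 7 in Id1KO_Zrf1KD vs WT. Of all probes fitted in this way, 42.3% were higher and 28.1% lower in the first comparison, 30.3% and 40.6% in the second, and 31.4% and 32.4% in the third. Eif2b3, Eif2s1, Eif3h, Eif3m, Eif4a2, Eif4b and Eif5 are members whose probes differed by less than 0.3 log2 units in every comparison.

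The genes that act on the initiation factors were listed apart. The shares of all genes called, against which each list's counts are to be read, were 42.5% higher and 29.6% lower in Id1KO vs WT, 32.3% and 39.8% on the knockdown, and 32.4% and 32.2% in Id1KO_Zrf1KD vs WT. Of 20 other initiation factors and partners, 11 were higher and 5 lower in Id1KO vs WT, 8 and 7 on the knockdown, and 15 and 4 in Id1KO_Zrf1KD vs WT. Eif2s3x, the X-linked gamma subunit of eIF2, was 2.07-fold higher in Id1KO than in WT (adjusted p = 2.23e-09). Eif2s3y, its Y-linked copy, lay between -5.72 and -5.30 on 3 WT arrays, where 1 of 4 WT arrays was well above background, and between 3.42 and 3.60 in Id1KO and 3.09 and 3.34 in Id1KO_Zrf1KD. The WT and Id1KO lines thus differed in a Y-linked gene, and that difference and the Id1 knockout cannot be told apart in any comparison with WT. Pdcd4, an inhibitor of eIF4A, was 1.63-fold higher in Id1KO than in WT and 2.27-fold lower in Id1KO_Zrf1KD than in Id1KO (adjusted p = 1.25e-05 and 1.92e-07).

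Of 8 genes for eIF2 kinases, eIF2 phosphatase subunits and their regulators, 1 was higher and 5 lower in Id1KO vs WT (42.5% and 29.6% of all genes), and 6 were higher and 1 lower on the knockdown (32.3% and 39.8% of all genes), under all 5 scalings in both. Eif2ak1, the haem-regulated eIF2 kinase, was 2.02-fold higher on the knockdown (adjusted p = 8.01e-08), and Ppp1r15b, a subunit of the phosphatase that reverses it, was 1.78-fold higher (adjusted p = 2.94e-07). Of 12 genes of the mTORC1 and MNK axis, which controls eIF4E, 2 were higher and 5 lower in Id1KO vs WT and 6 were higher and 1 lower on the knockdown. Akt1s1, an inhibitory partner of mTORC1, was 2.09-fold higher there (adjusted p = 2.62e-07). Of 4 genes for eIF5A hypusination and eIF6 release, 3 were higher and 1 lower in Id1KO vs WT, and Dhps, which starts hypusine synthesis on eIF5A, was 2.21-fold higher there and 1.91-fold lower on the knockdown (adjusted p = 2.72e-09 and 1.61e-08). Of 15 elongation and termination factor genes, 6 were higher and 7 lower in Id1KO vs WT, 8 and 3 on the knockdown, and 4 and 4 in Id1KO_Zrf1KD vs WT.

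Promoter windows of 300 bases around the annotated start, 250 before and 50 after, were at hand from RefSeq (GRCm38.p6) for 31 of the 40 members. They were searched for CACGTG, an E-box that Myc, a basic helix-loop-helix protein, binds. Whether the proteins that Id1 inhibits use this E-box was not tested. A window with CACGTG was found for 10 of the 31 members (32.3%), beside 8.91% of 17492 protein-coding genes and 8.09% of all 27025 genes with a window. With only the first listed window of each gene, the counts were 8 of 31 (25.8%) and 7.90% of protein-coding genes. CACGTG reads the same on both strands. The members with it moved both ways in Id1KO vs WT: 4 were among the 14 higher genes with a window and 4 among the 9 lower. A match is a description and not a binding site. In 4 examples of genes discussed above, capitals mark CACGTG in the stretch before the start, written on the gene's own strand, 5′ to 3′.
Eif4g1 at chr16:20672651-20672700, plus strand: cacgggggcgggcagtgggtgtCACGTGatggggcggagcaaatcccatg
Eif1b at chr9:120492560-120492605, plus strand: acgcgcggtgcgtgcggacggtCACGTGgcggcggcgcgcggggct
Eif3f at chr7:108934325-108934374, plus strand: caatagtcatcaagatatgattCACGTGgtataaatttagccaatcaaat
Eif4a1 at chr11:69672585-69672634, minus strand: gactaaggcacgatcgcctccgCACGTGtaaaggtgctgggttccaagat
The motif begins at 54, 24, 68 and 189 bases before the start in these, in the order given. CCGGAAG, a core bound by ETS factors, was present on either strand in 11 of 31 members (35.5%), beside 12.9% of protein-coding genes.

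The eIF3 subunits that moved apart on the knockdown include 3 of the 4 members with TCTTT within 20 bases of the start, on either side of it, on the gene strand. Many mRNAs under mTORC1 control begin with a pyrimidine run. This search was wider and does not place TCTTT at the first base of an mRNA. In Eif3m, Eif3g and Eif2b5 the marked TCTTT lies before the annotated start, and in Eif3f after it. The share was 4 of 31 members (12.9%), beside 4.68% of protein-coding genes. Capitals mark TCTTT in windows from 30 bases before to 20 bases after the start.
Eif3m at chr2:105017008-105017057, minus strand: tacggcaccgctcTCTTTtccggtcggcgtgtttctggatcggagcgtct
Eif3f at chr7:108934385-108934434, plus strand: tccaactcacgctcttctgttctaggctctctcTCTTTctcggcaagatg
Eif3g at chr9:20898571-20898620, minus strand: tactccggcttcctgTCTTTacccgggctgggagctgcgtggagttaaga
Eif2b5 at chr16:20498787-20498836, plus strand: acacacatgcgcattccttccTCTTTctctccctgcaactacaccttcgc
On the knockdown Eif3m fell (-0.86), while Eif3f (0.31), Eif3g (0.47) and Eif2b5 (0.34) rose, so the genes with these letters near the start did not share a direction.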

How the data were processed

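Total RNA of 12 samples was hybridised to one-colour (Cy3) Agilent arrays, 4 per group. Agilent Feature Extraction (version 10.7.3.1, per the file headers) made the deposited scanner files. Per the file headers, these deposited files give intensities: a background-subtracted and detrended processed signal per spot, beside raw mean and background signals, with 0 or 1 flags as other columns. Probe coordinates in the deposited files are of build mm9. The authors' deposited table holds log2 values whose median is 6.55 on every array; no source used here gives its normalization, and each column was matched to its own scanner file by its values. It was used as an alternative.

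The level of a spot is log2 of its processed signal, less log2 of the array's 75th percentile over 59305 non-control spots. Outlier spots were dropped, no spot was saturated, and spots of a probe were averaged. Probes were kept (30885 of 55681) where, in 1 or more groups, all 4 arrays had at least 50% of the probe's spots well above background, and a gene is represented by its brightest kept probe. A single limma fit (version 3.58.1, R 4.3.3) over all 22593 genes gave the comparisons from a mean per group, two-sided, with Benjamini-Hochberg adjustment per comparison and a threshold of 0.05; all adjusted p-values are limma's unless called exact. The number of arrays and the signal over background limit the precision.

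The members and the lists of pathway and marker genes were chosen with earlier results of these data known, and the class of bright genes after its values could be seen. Values on every array are given for the 4 highest and 4 lowest called members of each comparison and for the paralogue pairs, and probes are given apart where they disagree in sign or by over 1 log2 unit. Alternatives were 4 other scalings, no filter on dim probes, the mean of kept probes, every probe on its own, slide and replicate blocks, the compared groups alone, each array left out and a 1.5-fold rule. Replicate numbers are shared by the groups, but arrays of the same number did not deviate together (median correlation across genes -0.20, beside 0.24 for arrays of the same slide), so they were not used as pairs.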

Additional observations from a re-analysis of the deposited data

Results flagged for a closer look

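Within groups of 4 arrays, 1 array stood apart from the other 3 by Dixon's test in 5 of 114 combinations of member and group, where chance gives about 1 in 20. Eif3i was highest on WT replicate 2 at 4.51, with the next array at 4.33, and lowest on Id1KO_Zrf1KD replicate 3 at 4.45, with the next at 4.68; these 2 arrays are those whose values overlapped between the groups. Eif4e3, the dimmest tested member, was lowest on replicate 3 of both Id1KO (-4.41, next -3.90) and Id1KO_Zrf1KD (-3.96, next -3.54). Eif5a2 was lowest on WT replicate 1 at 0.86, with the next at 1.01.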

How the results depend on the processing

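Id1KO vs WT depended on the scaling. The counts of 20 higher and 10 lower members and the median of 0.13 became 13, 18 and -0.085 under quantile normalization, and 12, 18 and -0.075 in the deposited values, and the median was 0.034 with the mean of kept probes. Of all genes, 35.2% were higher and 34.7% lower under quantile normalization, and 35% and 34.3% in the deposited values. The knockdown counts stayed within 1.5 times of the main ones under the scalings, and the median was 0.27 under both quantile normalization (0.2706) and the deposited values (0.2675). The shares of all genes there were 35.6% higher and 34% lower under quantile normalization, and 35.4% and 33.6% in the deposited values. In Id1KO_Zrf1KD vs WT the median was 0.17 and 0.18 under these, and 4 members were lower in the deposited values and with the mean of kept probes (33.8% and 32.6% of all genes). Of the 28 higher calls in that comparison, 20 held under all 5 scalings. The 1.5-fold rule left 9 higher and 0 lower in Id1KO vs WT, 4 and 4 on the knockdown, and 8 higher in Id1KO_Zrf1KD vs WT. Signs turned in Id1KO vs WT under quantile normalization for Eif1 (-0.31), Eif2s2 (-0.25), Eif3k (-0.033), Eif4a1 (-0.31), Eif4e2 (-0.069) and Eif5a (-0.12), and in the deposited values for the same genes (-0.25, -0.24, -0.013, -0.28, -0.028 and -0.10). On the knockdown they turned for Eif2s2 (0.22 and 0.24) and Eif3k (0.11 and 0.11) under these 2 settings, and for Eif4e3 with normexp (-0.053). With the mean of kept probes they turned for Eif2s2 (-0.80 and -0.58), Eif3j (-0.34 and -0.092) and Eif4e (-0.15 and -0.21) in Id1KO vs WT and Id1KO_Zrf1KD vs WT, since their probes disagree. The causes of the other turns were not tested.

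Among the pairs, exact tests missed the threshold for Eif4e2 and Eif4e in Id1KO vs WT with normexp (-0.20). In the deposited values they missed it for Eif4ebp2 and Eif4ebp1 in Id1KO vs WT (-0.033) and on the knockdown (-0.038, a turned sign), and for Eif5a2 and Eif5a in Id1KO vs WT (-0.33), while Eif1b and Eif1 passed on the knockdown (-0.50). With any 1 WT array left out, all pair calls were lost, those on the knockdown through the joint adjustment. For the pairs of Eif4a2 and Eif4a1 and of Eif4g3 and Eif4g1 against WT, the exact p before adjustment stayed at 0.0286, but 9 or 10 of the 18 tests reached it in place of 13, so the lowest adjusted p was 0.0514 to 0.0571. The pair of Eif5a2 and Eif5a, with 3 Id1KO arrays from the start, was also lost without Id1KO replicate 1, 2 or 4 in both comparisons with Id1KO, and without any Id1KO_Zrf1KD array on the knockdown, where Eif4ebp2 and Eif4ebp1 were lost too. The changes themselves in Id1KO vs WT stayed between 0.18 and 0.25 for Eif1b and Eif1, -0.75 and -0.63 for Eif4a2 and Eif4a1, -0.27 and -0.18 for Eif4e2 and Eif4e, -0.27 and -0.19 for Eif4ebp2 and Eif4ebp1, 1.25 and 1.37 for Eif4g3 and Eif4g1, and -0.72 and -0.58 for Eif5a2 and Eif5a. In Id1KO_Zrf1KD vs WT they stayed between -1.66 and -1.55 for Eif4a2 and Eif4a1, 0.50 and 0.60 for Eif4g3 and Eif4g1, and -1.32 and -1.17 for Eif5a2 and Eif5a. On the knockdown they stayed between 0.21 and 0.27 for Eif4ebp2 and Eif4ebp1 and -0.64 and -0.53 for Eif5a2 and Eif5a.

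With single arrays left out, the members called in Id1KO vs WT were 18 to 20 higher and 10 lower, on the knockdown 19 to 21 and 10, and in Id1KO_Zrf1KD vs WT 27 to 28 and 2 to 3. Of all genes in these fits, 40.3% to 42.2% were higher and 28.5% to 29.3% lower in Id1KO vs WT. On the knockdown the shares were 30.9% to 31.9% and 37.9% to 39.6%, and in Id1KO_Zrf1KD vs WT 30.8% to 32.1% and 30.4% to 31.4%. In Id1KO vs WT, Eif2s2 was lost without WT replicate 1, 2 or 4 or Id1KO replicate 1, 2 or 4 (0.099 to 0.14), Eif4a3 without Id1KO replicate 1 (0.14) or 2 (0.16) and Eif5a without Id1KO replicate 4 (0.18). On the knockdown, Eif4g2 was lost without Id1KO replicate 2, 3 or 4 or Id1KO_Zrf1KD replicate 1, 3 or 4 (0.11 to 0.13), Eif5 without Id1KO replicate 1 or 3 or Id1KO_Zrf1KD replicate 2, 3 or 4 (0.12 to 0.15), and Eif4e3 without Id1KO replicate 2 or 3 or Id1KO_Zrf1KD replicate 1, 2 or 4 (0.21 to 0.38). Against WT, Eif4a1 was lost without WT replicate 1, 2 or 4 or Id1KO_Zrf1KD replicate 2, 3 or 4 (0.15 to 0.20). Calls were gained for Eif2b1 without WT replicate 2 (0.16), for Eif4e2 on the knockdown without replicate 3 of Id1KO (0.13) or Id1KO_Zrf1KD (0.15), for Eif2b5 without WT replicate 3 (-0.17) and for Eif4e3 against WT without Id1KO_Zrf1KD replicate 3 (0.33). With the replicate number as a block, 19 members were higher and 10 lower in Id1KO vs WT, 20 and 10 on the knockdown, and 28 and 2 in Id1KO_Zrf1KD vs WT. The shares of all genes were then 41.1% and 28.7%, 31.4% and 38.5%, and 31.3% and 31% in that order. The numbers did not pair the arrays, and 1 of 12 arrays was closest to its own number. With the slide as a block, Eif4e3 was lost on the knockdown (0.35) and Eif4h gained there (0.12), and Eif2b5 (-0.16) and Eif3m (0.22) were gained in Id1KO_Zrf1KD vs WT. Signal over background limits Eif5b, which has no value, and Eif4e3.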
